A study of Mus musculus with 2 samples.

Results

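The Mir130 and Mir301 family is a set of microRNA genes whose mature products begin with the same bases. Its members were taken by gene identity and not by their values, as the rows annotated in GENCODE M21 as Mir130a, Mir130b, Mir301 and Mir301b, which makes 4 of the 2202 microRNA genes counted. They lie at 3 loci. MicroRNA sequencing, with inserts shorter than 30 nt, had been done on total RNA from gastrocnemius, a calf muscle, of male B6CASTF1/J mice aged 4 days, which are hybrids of the C57BL/6 and CAST strains. The labels give 1 group of 2 libraries, replicate 1 from the mouse numbered 3 and replicate 2 from the mouse numbered 4, under separate biosamples and a shared donor identifier. The labels name no treatment, genotype contrast or second tissue, so the comparisons below set 1 library against the other and the members against each other.

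A microRNA is cut from a hairpin transcript, and the strand that enters the silencing complex finds messenger RNAs mainly through its seed, bases 2 to 8 from the 5′ end. Genes that share a seed are therefore expected to address largely the same messenger RNAs, whatever their position in the genome. The Mir130 and Mir301 family is known for its part in blood vessel growth, where miR-130a acts in endothelial cells, and for repression of Pparg, the master regulator of fat cell formation.

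The mature sequences carry what makes these genes a family and are shown first, from the RefSeq table for GRCm38.p6, in which all 4 members had a hairpin at the same coordinates as in GENCODE. Capitals mark the seed. Sequences are given 5′ to 3′.
miR-130a-3p: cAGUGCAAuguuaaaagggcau
miR-130b-3p: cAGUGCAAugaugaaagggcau
miR-301a-3p: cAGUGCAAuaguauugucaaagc
These are products of Mir130a, Mir130b and Mir301, and the seed AGUGCAA is common to them. Counted from 1 at the 5′ end, miR-130a-3p and miR-130b-3p differed at 2 of 22 positions, U11A and A13G, the base of miR-130a-3p being written first. The sequences of miR-130a-3p and miR-301a-3p were identical over their first 9 bases and differed at 10 of the 22 positions compared, all from position 10 on.

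The opposite arms of the hairpins had other seeds, also in capitals.
miR-130a-5p: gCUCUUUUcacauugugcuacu
miR-130b-5p: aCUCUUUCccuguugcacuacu
miR-301a-5p: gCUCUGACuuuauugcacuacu
miR-301b-5p: gCUCUGACuagguugcacuacu
On this arm miR-301a-5p and miR-301b-5p shared the seed CUCUGAC and differed at 3 of 22 positions (U10A, U11G and A12G, the base of miR-301a-5p first). The counts are per gene and do not separate the arms.

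The whole hairpins, from which every counted read of a member comes, are given next with the family seed in capitals.
Mir130a: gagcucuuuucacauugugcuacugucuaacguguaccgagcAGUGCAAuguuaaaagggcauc
Mir130b: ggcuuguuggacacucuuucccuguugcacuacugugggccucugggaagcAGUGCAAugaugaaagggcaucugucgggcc
Mir301: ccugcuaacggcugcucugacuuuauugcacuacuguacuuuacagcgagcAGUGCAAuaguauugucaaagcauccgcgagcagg
Mir301b: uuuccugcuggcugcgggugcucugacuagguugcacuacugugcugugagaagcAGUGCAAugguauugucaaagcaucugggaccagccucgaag
The seed occurred once in each hairpin. The longest stretch shared by a pair of members was 16 nt, between Mir301 and Mir301b. No member shared a window of 18, 22 or 25 nt with any other of the annotated microRNA genes, on either strand (0 of 4 at each length), so reads of at least 18 nt that matched without error had 1 place among these genes. The rest of the genome was not searched.

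The members sit in different gene surroundings in mm10. Mir130a lies on the minus strand of chromosome 2 (84741115 to 84741178) outside any other annotated gene, 990 nt from the protein-coding gene Gm19426 on the same strand. Mir301 is in an intron of Ska2, which encodes a spindle and kinetochore protein, on the plus strand of chromosome 11 (87113004 to 87113089). Mir130b (chromosome 16, 17124061 to 17124142) and Mir301b (17124400 to 17124496) are 257 nt apart in an intron of 2610318N02Rik, on its strand.

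The libraries differed in depth and in their marker content. Sense reads on microRNA genes came to 4458853 in replicate 1 and 3073086 in replicate 2, and levels below are reads of a gene per 1000000 of these reads (CPM). Without the 67 microRNA genes between Dlk1 and Dio3, the sense reads came to 2991317 and 3043184. Those genes thus held a far larger share of replicate 1, which enters every CPM and share below. The skeletal muscle marker list of 11 genes held 14.7% of replicate 1 and 0.479% of replicate 2. Within it Mir206, the skeletal muscle microRNA, had 652657 and 101 reads, while Mir133c had 0 in both. The other 10 genes of that list went the other way in sum, with 4045 reads (0.0907%) and 14632 reads (0.476%). That sum rests mainly on Mir499 (1953 and 8633 reads) and Mir208b (1068 and 4340), and does not by itself show more skeletal muscle in replicate 2. By the test described below, Mir499, Mir208b and Mir486 were called higher in replicate 2 (the first 2 with log2 ratios of 2.05 and 1.93), and Mir206, Mir133b and Mir133a-1 lower. Mir133b had 427 and 10 reads, and Mir133a-1 had only 34 and 16. Mir208a, which is made in heart muscle, had 59 and 29718 reads. The share of endothelial markers (2 genes) was 2.54% and 6.62%, that of smooth muscle markers (2 genes) 2.17% and 4.90%, and that of fibroblast markers (4 genes) 0.591% and 0.281%. Erythroid markers (2 genes) held 0.0220% and 0.0979%, white blood cell markers (5 genes) 0.0793% and 0.429%, and neural markers (11 genes, 6 of them at 0 in both libraries) 0.142% and 0.0426%. The 6 at 0 are the Mir9 and Mir124a genes. Reads that match several places in the genome were set aside, and muscle and neural markers were not searched for shared stretches. The counts of their numbered copies, as of Mir1a, Mir133a, Mir9 and Mir124a, are therefore uncertain. A count of 0 there does not show absence. The skeletal muscle label of replicate 2 thus went with a defining marker at 101 reads, and the libraries are called by their labels. The part of these differences in the results on the family was not tested. In bulk tissue, fewer cells of a type and less RNA per cell cannot be told apart.

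The family as a whole took nearly the same share of both libraries. Its 4 members together had 30099 reads in replicate 1, 0.675% of the microRNA reads (exact Clopper-Pearson 95% interval 0.667 to 0.683%). In replicate 2 they had 21090 reads, 0.686% (0.677 to 0.696%). The mean share was 0.681% ± 0.00795 (SD, n = 2), and the intervals of the libraries overlapped. This near equality is of shares. Relative to library sizes scaled with TMM, a trimmed mean of gene-wise ratios, the summed reads had a log2 ratio, replicate 2 over replicate 1, of −0.60 (95% counting interval −0.63 to −0.58). It was −0.32 when DESeq2 size factors were used, 0.024 when total reads were and −0.74 without the Dlk1-Dio3 genes. The direction of the sum thus depends on the scaling.

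Mir130a supplied nearly all of the family's reads. It made up 89.9% of them in replicate 1 (89.5 to 90.2%) and 94.1% in replicate 2 (93.8 to 94.5%). Mir130b made up 5.62% and 4.87%, Mir301 4.45% and 0.982%, and Mir301b 0.0664% and 0.00474%. The order Mir130a, Mir130b, Mir301, Mir301b was the same in both libraries.

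**Figure D1:**
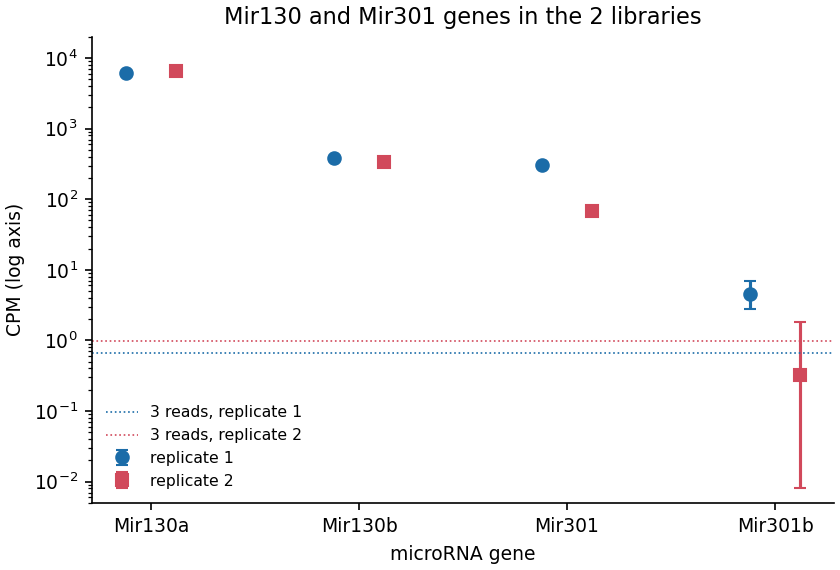
Level of each family member in CPM (log axis) in replicate 1 (blue circles) and replicate 2 (red squares), with exact 95% counting intervals. Dotted lines mark the level of 3 reads in each library. Mir130a and Mir130b are close together in the libraries, Mir301 stands at 301 CPM against 67.4, and Mir301b is near the dotted lines.

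Mir130a, the member known from endothelial cells, was among the abundant microRNA genes of both libraries. It had 27047 reads (6066 CPM) in replicate 1 and 19854 reads (6461 CPM) in replicate 2, at rank 33 and rank 25 of 2202 genes. Of the 2202, only 635 had any sense read in replicate 1 and 605 in replicate 2. The mean level of Mir130a was 6263 ± 279 CPM (SD, n = 2). The libraries were close to each other for this gene in CPM. Mir130b had 1692 reads (379 CPM) and 1028 reads (335 CPM), at ranks 127 and 102, with a mean of 357 ± 31.8 CPM (SD, n = 2).

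Mir301, the Ska2 intronic member, differed between the libraries. It had 1340 reads in replicate 1 (301 CPM, counting interval 285 to 317) and 207 in replicate 2 (67.4 CPM, 58.5 to 77.2), at ranks 138 and 170. The SD of its level over the libraries, 165 CPM, was nearly as large as its mean of 184 CPM. In replicate 1 the level of Mir301 came near that of Mir130b, and in replicate 2 it was well below it.

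Mir301b, the neighbour of Mir130b, was rarely counted. It had 20 reads in replicate 1 (4.49 CPM, 2.74 to 6.93) and 1 read in replicate 2 (0.325 CPM, 0.00824 to 1.81). A count of 0 was taken to allow up to 3 reads, equal to 0.673 CPM of replicate 1 and 0.976 CPM of replicate 2, so Mir301b was above that limit in replicate 1 and below it in replicate 2. Of the 4 members, 3 had at least 10 reads in each library. Each counted molecule is a short RNA of like length (the mature forms shown are 22 or 23 nt), so levels of different members were compared per read and not per length of hairpin.

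Mir301 and Mir301b were lower in replicate 2 beyond counting noise and the 2-fold threshold, and Mir130a and Mir130b did not pass that threshold. A two-sided exact binomial test of the reads of each gene in the libraries was run over the 410 microRNA genes with at least 10 reads in total, with Benjamini-Hochberg adjustment. A gene was called where its adjusted p was below 0.05 and its levels were at least 2-fold apart. This test compares these libraries and not conditions. All 4 members passed the minimum of 10 reads in total, 2 were called lower and 0 higher. Over all genes tested, 36.1% were called lower, 17.6% higher and 53.7% in either direction, so the members' count of 2 of 4 is near the background.

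The log2 ratio of Mir301 was −2.78, a level 6.86-fold lower in replicate 2 (95% counting interval 5.95 to 8.01), with an adjusted p of 2.92e-218 in the exact binomial test. That of Mir301b was −3.46 with a prior count of 1, and its counting interval of −9.78 to −1.77 shows how little 20 reads and 1 read fix the size of the difference. Its adjusted p was 1.12e-05 in the exact binomial test. Mir130b had a log2 ratio of −0.81 (−0.92 to −0.70) and Mir130a of −0.54 (−0.56 to −0.51). The counting intervals of these genes exclude 0 under TMM sizes but lie inside the 2-fold threshold.

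Measured against the other genes, Mir130a and Mir130b were close to the middle. The median log2 ratio of the 410 genes was −0.33, and that of the members was −1.79. Of all tested genes, 47.3% had a lower log2 ratio than Mir130a and 41.5% a lower one than Mir130b. For Mir301 this share was 20.0%, and for Mir301b it was 17.3%. These shares and the median of all genes include the microRNA genes between Dlk1 and Dio3. Many of those genes were far lower in replicate 2, such as Mir127 with a log2 ratio of −5.29. The shares were not computed without them.

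**Figure D2:**
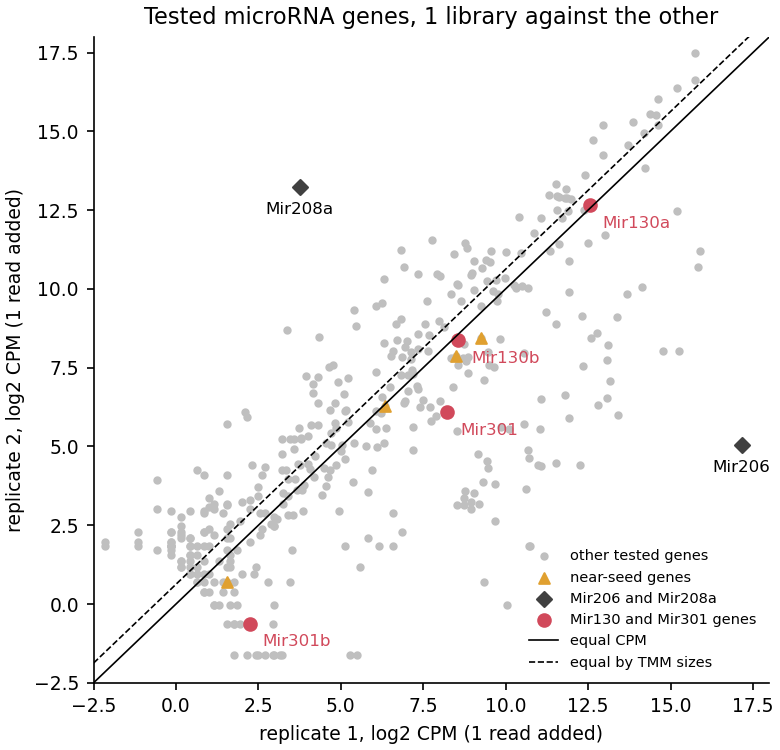
Log2 CPM (with 1 read added) of the 410 tested microRNA genes in replicate 1 (horizontal) and replicate 2 (vertical). The family members are red circles, genes with a near seed orange triangles, Mir206 and Mir208a dark diamonds and all others grey, and the solid and dashed lines mark equal CPM and equality by TMM sizes. Mir130a and Mir130b lie by the solid line and Mir301 and Mir301b below it, nearer to it than Mir206.

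The calls of Mir301 and Mir301b did not depend on the scaling, whereas the direction of Mir130a did. Over the tested genes, the median of the log2 ratios was above its TMM value by 0.26 under DESeq2 size factors and by 0.59 under total reads. With total reads Mir301 stood at −2.15 and Mir301b at −3.01, both called lower, and Mir130b at −0.18. Over all genes, 31.0% were called lower under DESeq2 scaling and 28.0% by total reads. Mir130a turned to 0.091 with total reads, with −0.26 under DESeq2 size factors. Relative to the median of all tested genes, Mir130a stood at −0.20, −0.19 and −0.17 under TMM, DESeq2 and total reads, and Mir301 at −2.45, −2.43 and −2.41. With the pooled dispersion of the pair in place of counting noise, the edgeR exact test called neither Mir301 nor Mir301b (adjusted p = 1 for each, unadjusted p = 0.317 and 0.225). Over the other alternatives, all by the exact binomial test, the adjusted p of Mir301 ran from 1.61e-242 to 1.28e-122 and that of Mir301b from 4.22e-06 to 0.000696. That dispersion came from the same libraries and includes the difference under test.

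**Figure D3:**
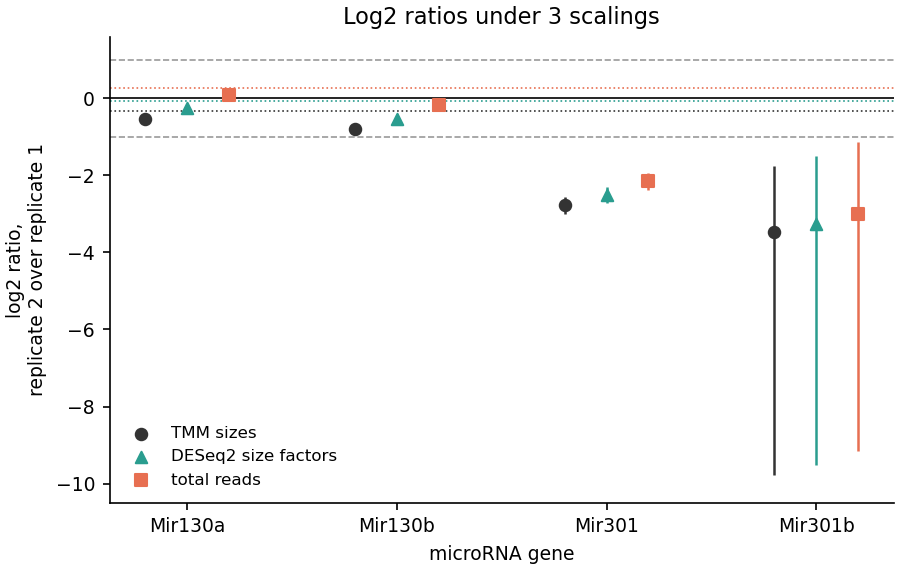
Log2 ratio of each member, replicate 2 over replicate 1, under TMM sizes (dark circles), DESeq2 size factors (green triangles) and total reads (orange squares), with 95% counting intervals as vertical lines. Dashed lines mark the 2-fold threshold and dotted lines the median of all 410 tested genes under each scaling. Mir301 and Mir301b stay below the lower dashed line and Mir130a changes sign with total reads.

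Ratios between members within a library need no scaling between libraries, and they set Mir301 apart from Mir130a and Mir130b. Mir130a had 16.0 times the reads of Mir130b in replicate 1 (15.2 to 16.8) and 19.3 times in replicate 2 (18.1 to 20.6). This ratio changed by a factor of 1.21 between the libraries (conditional exact 95% interval 1.11 to 1.31). Mir130a had 20.2 times the reads of Mir301 in replicate 1 (19.1 to 21.3) and 95.9 times in replicate 2 (83.6 to 111), a change by a factor of 4.75 (4.10 to 5.53). Mir130b had 1.26 times the reads of Mir301 in replicate 1 (1.17 to 1.36) and 4.97 times in replicate 2 (4.27 to 5.79), a change by a factor of 3.93 (3.33 to 4.66). The intervals of these changes to the ratios with Mir301 lie above that of the Mir130a to Mir130b ratio. The intervals cover counting error only, with 1 library on each side.

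The neighbours Mir130b and Mir301b, in the same intron and on the same strand, were far apart in reads. Mir130b had 84.6 times the reads of Mir301b in replicate 1 (54.6 to 139). In replicate 2 the ratio was 1028 on a single Mir301b read, with an interval of 184 to 40643. The ratio changed by a factor of 12.1 with an interval of 1.94 to 504, so its direction was above counting error and its size was not fixed at this depth. Mir301 and Mir301b, the members with the lower log2 ratios, had a ratio of 67.0 in replicate 1 (43.2 to 110) and of 207 in replicate 2 (36.7 to 8215). The interval of that change, 0.489 to 129, includes 1. A difference between their log2 ratios was not detectable at this depth.

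**Figure D4:**
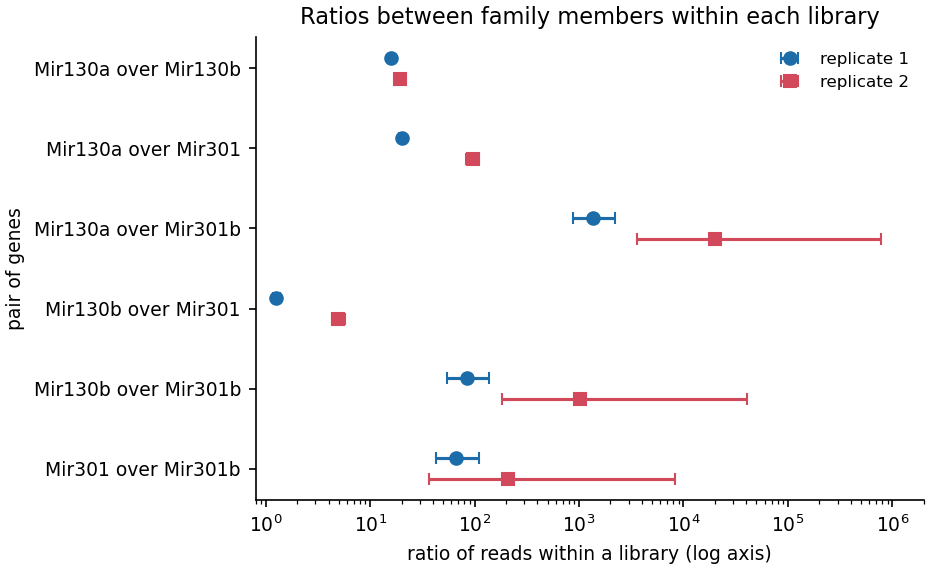
Ratio of reads for the 6 pairs of family members within replicate 1 (blue circles) and replicate 2 (red squares), on a log axis, with exact 95% counting intervals. Mir130a over Mir130b is nearly the same in the libraries, the ratios of Mir130a and Mir130b to Mir301 differ, and the ratios to Mir301b have long intervals in replicate 2.

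Other annotated genes with the same seed gave no counted reads. Of 1738 mature sequences in the RefSeq table, 7 had the seed AGUGCAA, of which 3 belong to members and 4 to genes outside the family as defined here. The count does not cover miR-301b-3p, as these RefSeq sequences held no mature form of it. The 4 outside the family are shown because they would be read as family members by seed alone.
miR-130c: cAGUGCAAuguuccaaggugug
miR-6389: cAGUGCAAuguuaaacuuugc
miR-721: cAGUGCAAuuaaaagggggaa
miR-6341: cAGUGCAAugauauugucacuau
The first 15 bases of miR-6389 were those of miR-130a-3p. Their genes Mir130c, Mir6389, Mir721 and Mir6341 had 0 sense reads in both libraries, which allows up to 0.673 CPM for replicate 1 and 0.976 CPM for replicate 2. Beside these limits, the gene Mir130a stood at 6066 and 6461 CPM with both of its arms counted together.

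Genes with a seed shifted by 1 base had few counted reads beside Mir130a. The Mir148 and Mir152 genes, which repress DNA methyltransferase genes, and the Mir19 genes, which belong to growth-promoting clusters, share 6 seed bases with the family. The capitals show their own seeds.
miR-148a-3p: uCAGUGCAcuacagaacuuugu
miR-152-3p: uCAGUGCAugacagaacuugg
miR-19a-3p: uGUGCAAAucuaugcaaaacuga
Mir148a had 2740 and 1071 reads (615 and 349 CPM), Mir152 had 1590 and 720 (357 and 234 CPM), and Mir148b had 357 and 239 (80.1 and 77.8 CPM). Mir19a had 12 and 4 reads, Mir19b-1 had 3 and 4, and Mir19b-2 had 2 and 0. Mir19b-1 and Mir19b-2 share a 22 nt stretch, so reads of their common product could not be assigned to either and their counts are uncertain. Of 4 near-seed genes tested, 2 were called lower in replicate 2, Mir148a with a log2 ratio of −1.44 and Mir152 of −1.23, and 0 were called higher. The median of the 4 was −1.34, against −0.33 over all genes. With DESeq2 size factors 1 of them was called and with total reads 0. Over all tested genes, 36.1% were called lower under TMM, 31.0% under DESeq2 size factors and 28.0% by total reads. The counts for these 4 genes are near that background. The counted reads of the 6 near-seed genes together made 0.105% of replicate 1 and 0.0663% of replicate 2, less than those of the family in each. Unassigned reads of the product common to Mir19b-1 and Mir19b-2 are not in these sums.

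MicroRNAs known from blood vessel growth were described beside Mir130a because that member belongs among them by its known role. Of 21 such genes 20 were tested, and 5 were called higher in replicate 2, 3 lower and 12 neither. Their median log2 ratio was 0.46, against −0.33 over all genes and −0.54 for Mir130a. The endothelial gene Mir126a had 113331 and 203314 reads and a log2 ratio of 0.75, and Mir23a had one of 0.35. Mir378a, in the same list, was higher at 1.12, and Mir10b was lower at −3.79. In this list, Mir378a, Mir24-1, Mir24-2 and Mir92-1 hold a 22 nt stretch also found in another annotated microRNA. The counts of these genes are uncertain. Mir126a and Mir126b share a stretch too, but Mir126b (chromosome 2, 26591363 to 26591420) lies within Mir126a (26591357 to 26591429). Their stretch is the same place in the genome, so it does not make the Mir126a count uncertain. The antisense reads of Mir126b, 113326 and 203300, are nearly the sense reads of Mir126a. DESeq2 size factors gave 9 higher and 3 lower calls, and total reads gave 10 and 2. Over all tested genes the share called higher also grew, from 17.6% under TMM to 24.4% and 32.9%. The share of all tested genes called lower was 36.1% under TMM, 31.0% under DESeq2 size factors and 28.0% by total reads. Mir130a was not called under any of these scalings.

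The genes nearest to each member in level were found by Euclidean distance over log2 CPM in the 2 libraries. Nearest to Mir130a were Mir744 (5276 and 5807 CPM, at a distance of 0.253), Mir191 and Mir30a. Nearest to Mir130b was Mir467e at 0.215, then Mir152, a near-seed gene, at 0.522, and Mir125b-1 at 0.589. Mir467e shares 22 nt stretches with 14 other microRNA genes and Mir125b-1 and Mir191 with 1 each, so their counts are uncertain. Nearest to Mir301 were Mir224 (239 and 61.8 CPM, at 0.354), the liver microRNA Mir122 (258 and 87.5 CPM, at 0.436) and Mir708, which also shares a stretch with another gene, at 0.562. These likenesses rest on 2 libraries.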

How the data were processed

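The authors deposited a table of raw counts for each library, whole reads per microRNA gene in an unstranded, a sense and an antisense column, on mm10 with GENCODE M21 per the deposited description files. Which aligner version and trimming were applied is not given in the sources used here. The files have the layout of STAR gene counts, which set multimapping reads aside. These made up 35.7% of the reads of replicate 1 and 45.1% of replicate 2. Summary lines of unmapped (9.97% and 8.60%), multimapping and unassigned reads (2.05% and 3.83%) stayed out of sizes and tests. All 2202 identifiers matched GENCODE M21. Columns of other samples numbered 0.

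The sense column was used. TMM factors (edgeR 4.0.16, R 4.3.3) came from the 410 genes with at least 10 reads in total, and log2 ratios carry a prior count of 1. Shares and ratios have exact Clopper-Pearson 95% intervals. PCR copies of a molecule are counted as separate reads, so intervals cover counting error only, and p-values measure departure from counting noise between 2 libraries. The test's script was tested on simulated counts with counting noise only. That run does not bear on the wider spread between these libraries. Alternatives were DESeq2 1.42.0 size factors, total reads, other minimum counts, the unstranded column, a prior count of 0.5, the edgeR exact test with pooled dispersion, library sizes without the 67 microRNA genes between Dlk1 and Dio3, and each library alone. Scripts ran under Python 3.11.15 with pandas 2.3.3, scipy 1.17.1 and numpy 2.4.6.

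The members and lists were chosen with earlier results of these data known. Genes named are the members, all genes of the same or a near seed, up to 3 genes with the highest mean share in each further list, and the 3 genes nearest in level to each member with at least 10 reads in both libraries. Mir10b was named from the vascular list, and Mir133a-1, Mir133b, Mir133c and Mir486 from the muscle list, after their values were seen.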

Additional observations from a re-analysis of the deposited data

Results flagged for a closer look

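The antisense column, which no comparison above used, held 10 reads of Mir130a in replicate 2, above the 3 reads set as the limit for a count of 0. Replicate 1 had 2 such reads. Per 10000 sense reads of Mir130a this is 0.739 in replicate 1 and 5.04 in replicate 2. The other 3 members had 0 antisense reads in both libraries. Over all microRNA genes, 36 in replicate 1 and 31 in replicate 2 had more than 3 antisense reads.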

How the results depend on the processing

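The count of 2 members called lower was also found with DESeq2 size factors, total reads, no minimum count, the unstranded column, a prior count of 0.5 and library sizes without the Dlk1-Dio3 genes. With at least 100 reads in total, Mir301b was no longer tested and 1 member was called. With the pooled dispersion of edgeR, 0 members and 0 of 410 genes were called, against 28 genes at an unadjusted p under 0.05; the wider dispersion is part of that test's construction. The log2 ratio of Mir130a turned to 0.091 with total reads. The family's summed log2 ratio was −0.32 with DESeq2 size factors, 0.024 with total reads, −0.43 with the unstranded column and −0.74 without the Dlk1-Dio3 genes. Its mean share ran from 0.675% to 0.686% with each library alone, and was 0.862% with the unstranded column and 0.322% of all reads, whose denominators differ by construction. The ratio of Mir130b to Mir301b reads, 130 over both libraries, ran from 84.6 to 1028 with each library alone. Of all calls, 32.7% were higher under TMM, 44.1% under DESeq2 scaling and 54.0% for total reads. Leaving out a library leaves no ratio between libraries. No paired analysis was possible because the labels give a single group. Depth limits Mir301b, with 20 reads and 1 read.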
